A study of Mus musculus with 6 samples.

Results

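The respiratory chain of mitochondria is built mainly from proteins encoded in the nucleus, and the levels of these transcripts were compared in B16F10 melanoma cells kept in DMEM-HG or in RPMI-1640. Members were chosen by name from the deposited table of FPKM (fragments per kilobase of gene, scaled to the mapped fragments of the library). Their symbols begin with Nduf, Uqcr, Atp5 or Cox followed by a digit, or are Sdha, Sdhb, Sdhc, Sdhd, Cyc1 or Cycs. The names matched 103 of 21878 rows, and 96 of these averaged 1 FPKM or more across all 6 libraries and so entered the test of 10624 genes. They comprised 36 subunits of complex I, 4 of complex II, 9 of complex III, 13 of complex IV and 15 of complex V, with cytochrome c, 8 assembly factors of complex I, 9 assembly factors of complex IV and Atp5s, which was kept apart.

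B16F10 is an established mouse melanoma line, and all 6 libraries were labelled as wild type at time 0 and grown with 10% fetal bovine serum. There were 3 libraries from cells in DMEM-HG and 3 from cells in RPMI-1640, both widely used basal media. The code HG is not explained in the labels, which give no glucose level for either medium. The labels do not state whether replicate libraries stem from separate cultures, and p-values therefore measure only the spread among libraries, possibly a technical one. A code before the replicate number is 3 in every DMEM-HG title and 1 in every RPMI-1640 title, so its meaning and the medium cannot be told apart. The labels' treatment text describes adipogenic differentiation without tying it to a group. In these libraries 8 of 8 melanocyte markers had a mean of at least 1 FPKM, and 0 of 8 adipocyte markers did, with Fabp4, Lep, Cidec and Cebpa at 0 throughout. The summed melanocyte markers lay between 13014 and 13246 FPKM in DMEM-HG and between 10702 and 10857 FPKM in RPMI-1640. Library totals were between 36960000 and 46404000 fragments in DMEM-HG and between 37828000 and 45361000 in RPMI-1640.

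Complex I (NADH dehydrogenase) and complex II (succinate dehydrogenase) pass electrons to ubiquinone, complex III carries them on to cytochrome c, and complex IV (cytochrome c oxidase) hands them to oxygen. The proton gradient that complexes I, III and IV build drives complex V, the ATP synthase. Assembly factors help to put the complexes together and are not part of the finished enzymes. The subunits encoded in mitochondrial DNA were not analysed here. Each result below concerns transcript levels and not the amount of protein or the rate of respiration. In bulk samples, a change in the make-up of the cells and a change in RNA per cell cannot be told apart.

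Proximal promoters are shown for the member with the highest fold change of each complex, to put the sequence beside the values. They run from 250 bases before to 50 after the start of transcription on the strand of the gene, 5′ to 3′, and come from RefSeq on build GRCm38.p6. All 5 lie on the minus strand, at chr15:82354242-82354541 for Ndufa6, chr9:50603800-50604099 for Sdhd, chr4:116075021-116075320 for Uqcrh, chr17:83514284-83514583 for Cox7a2l and chr2:174464052-174464351 for Atp5e. Capitals mark a match, on either strand, to GCGCANGCG, the core letters bound by NRF1, or to CCGGAAG, the core letters of ETS-family sites such as those of GABP (NRF-2).
Ndufa6: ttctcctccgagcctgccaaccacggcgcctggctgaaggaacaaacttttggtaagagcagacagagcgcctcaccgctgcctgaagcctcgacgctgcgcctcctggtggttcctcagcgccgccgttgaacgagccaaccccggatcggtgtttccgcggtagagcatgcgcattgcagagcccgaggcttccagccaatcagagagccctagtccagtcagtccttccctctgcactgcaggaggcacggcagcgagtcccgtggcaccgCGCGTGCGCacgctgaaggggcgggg
Sdhd: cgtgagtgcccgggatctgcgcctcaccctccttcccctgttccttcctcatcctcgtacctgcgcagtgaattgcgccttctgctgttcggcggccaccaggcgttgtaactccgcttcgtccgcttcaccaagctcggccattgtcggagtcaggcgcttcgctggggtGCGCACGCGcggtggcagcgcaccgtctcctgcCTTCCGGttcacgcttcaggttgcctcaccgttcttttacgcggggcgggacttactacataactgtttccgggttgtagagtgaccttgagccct
Uqcrh: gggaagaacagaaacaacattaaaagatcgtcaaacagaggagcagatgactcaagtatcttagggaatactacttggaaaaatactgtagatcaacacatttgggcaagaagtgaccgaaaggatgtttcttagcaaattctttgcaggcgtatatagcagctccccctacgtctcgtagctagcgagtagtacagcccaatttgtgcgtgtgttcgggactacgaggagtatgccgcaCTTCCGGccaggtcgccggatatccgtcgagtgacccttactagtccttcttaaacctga
Cox7a2l: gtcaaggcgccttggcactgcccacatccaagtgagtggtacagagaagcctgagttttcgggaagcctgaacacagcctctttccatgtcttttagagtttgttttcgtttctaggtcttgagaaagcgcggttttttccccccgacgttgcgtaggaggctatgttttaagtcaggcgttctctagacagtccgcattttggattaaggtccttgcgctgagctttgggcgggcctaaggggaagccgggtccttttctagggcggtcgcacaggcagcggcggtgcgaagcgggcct
Atp5e: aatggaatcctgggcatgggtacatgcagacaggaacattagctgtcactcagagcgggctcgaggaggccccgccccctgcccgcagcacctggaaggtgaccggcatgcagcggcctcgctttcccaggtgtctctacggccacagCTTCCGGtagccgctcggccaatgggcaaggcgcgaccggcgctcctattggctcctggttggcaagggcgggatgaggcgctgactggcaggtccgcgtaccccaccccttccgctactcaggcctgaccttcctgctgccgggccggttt
Ndufa6 held the NRF1 letters, Sdhd held both, and Uqcrh and Atp5e held the ETS letters. Cox7a2l had no match to either motif in this window, which belongs to a RefSeq start inside the annotated gene. In the GENCODE annotation the gene reaches to 83517330 on chromosome 17, so the window does not cover its outermost 5′ end.

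Transcripts of the structural subunits were mostly higher in DMEM-HG, in all 5 complexes, while those of the assembly factors were split. Of 78 subunits with cytochrome c, 62 were called higher and 2 lower in DMEM-HG, and 14 were not called (limma on log2(FPKM + 1), adjusted p under 0.05 over all tested genes). Among 17 assembly factors 6 were higher, 5 were lower and 6 were not called. Most genes differed between the media. Of all tested genes 76.0% were called, 35.4% higher and 40.6% lower in DMEM-HG. The shares higher and lower were 79.5% and 2.56% of the subunits, and 35.3% and 29.4% of the assembly factors. The share of assembly factors called higher was thus near that of all tested genes. The median log2 fold change, DMEM-HG minus RPMI-1640, was 0.41 for the subunits, -0.02 for the assembly factors and -0.03 for all tested genes. All DMEM-HG values lay above all RPMI-1640 values for 61 of the 78 subunits and below them for 3, and for 6 and 5 of the 17 assembly factors. The same held for 36.7% and 42.2% of all tested genes.

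**Figure D1:**
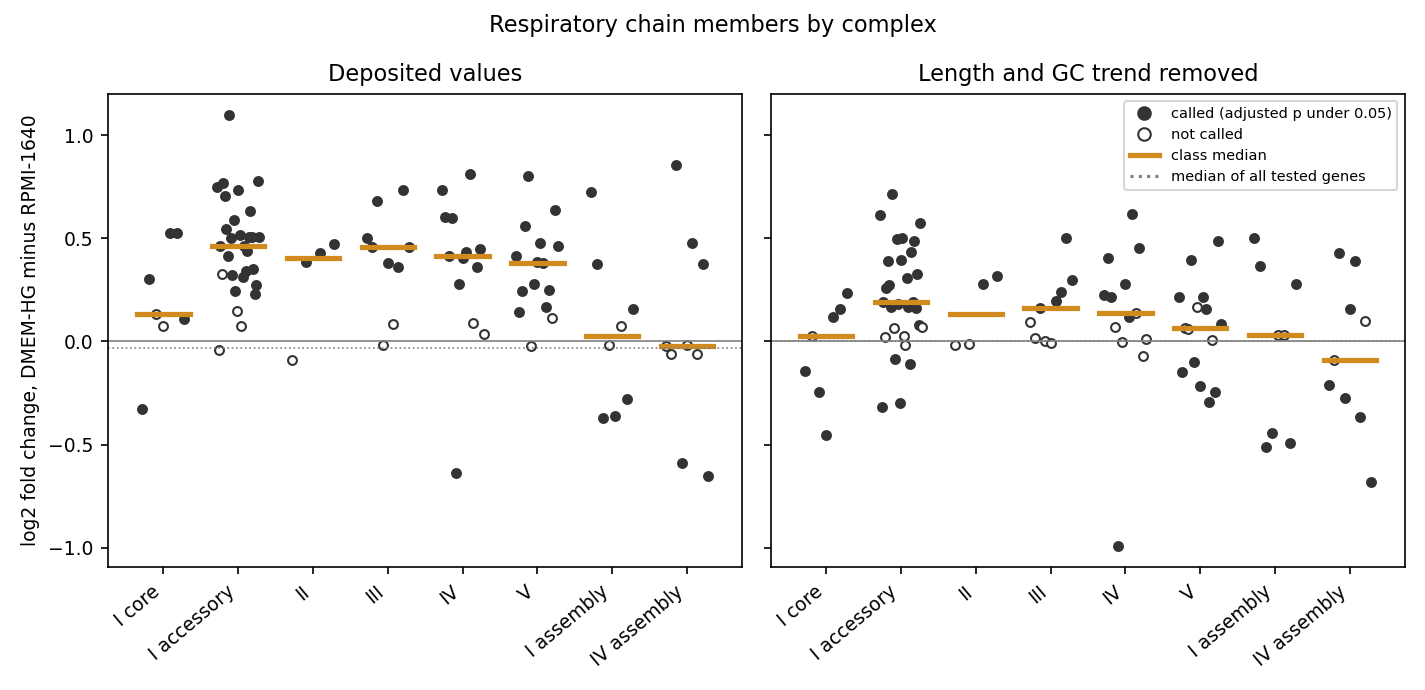
Log2 fold change of 94 members (DMEM-HG minus RPMI-1640, on the log2(FPKM + 1) scale) by complex, each point a gene, with the deposited values on the left and the values with the length and GC trend removed on the right. Bars are class medians. On the left the medians of complexes II to V and of the complex I accessory subunits lie between 0.38 and 0.46 and those of both assembly groups lie near 0, and on the right every class median is at or below 0.19.

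Gene length moved with the medium over the whole table, and the subunits are short. Over all tested genes the Spearman correlation of the log2 fold change with gene length was -0.46, and with GC content 0.49. These are descriptions across genes, which share libraries and are not independent. The median length was 720 bases for the subunits, 1446 bases for the assembly factors and 2837.5 bases for all tested genes. Among the shortest 10% of all tested genes 64.5% were called higher and 11.7% lower in DMEM-HG, with a median log2 fold change of 0.32. The longest 10% had a median of -0.55. With the trend on length and GC content removed, the medians were 0.16 for the subunits and 0.03 for the assembly factors, and 44 subunits were called higher and 13 lower. The percentages over all tested genes were then 73.8% called, 36.4% higher and 37.3% lower in DMEM-HG. Across the 78 subunits, the Spearman correlation of log2 fold change with GC content was 0.31 before this removal and -0.43 after it. Its counterpart with gene length went from -0.25 to -0.04. Within this class the values after removal thus still varied with GC content, in the opposite direction. The cause of this was not tested. Of the 68 members called higher on the deposited values, 47 kept sign and call, and 11 kept the sign and lost the call. Another 5 lost the call with the sign turned, and 5 were called lower (Ndufa8, Ndufb7, Atp5b, Atp5j and Atp5g2). The length used for Atp5b is uncertain. Scaling every library to a common FPKM total moved the median of all tested genes by -0.15 and left 2659 genes higher and 5471 lower, against 3762 and 4316. Under that scaling 58 members were higher and 16 lower, against 68 and 8. Sdha (-0.25), Ndufa10 (-0.20), Uqcrb (-0.18) and Atp5f1 (-0.18), not called on the deposited values, were then called lower.

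**Figure D2:**
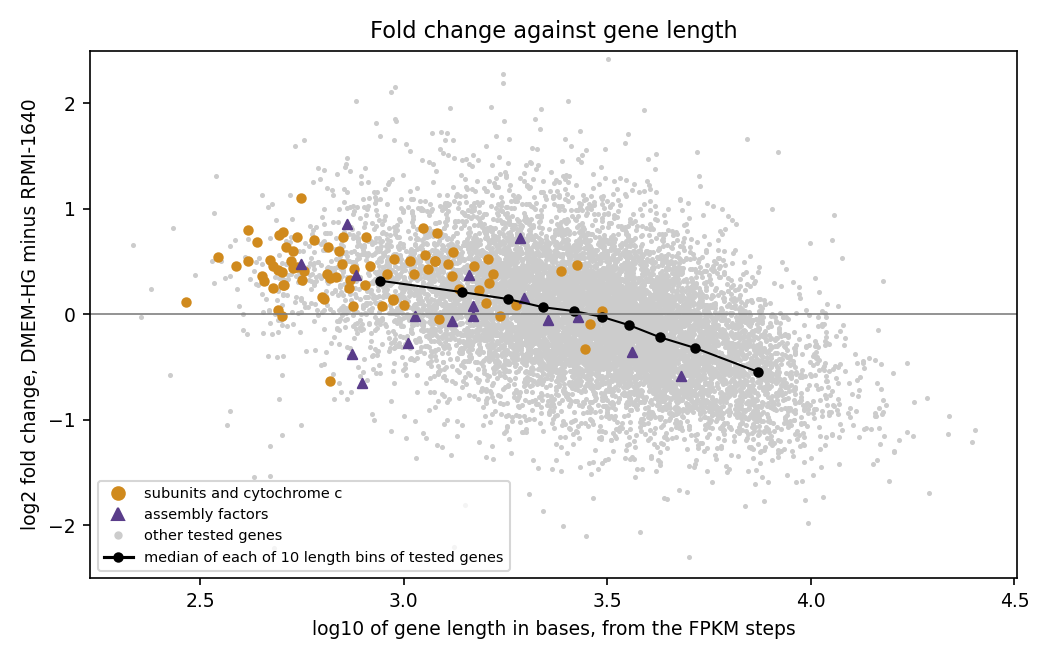
Log2 fold change (DMEM-HG minus RPMI-1640) against log10 of gene length in bases, with subunits as circles, assembly factors as triangles and other tested genes as small points. The line joins the medians of 10 equal bins of all tested genes by length, which run from 0.32 in the shortest bin to -0.55 in the longest. The axis ends at ±2.5, beyond which 4 genes lie.

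Complex I is the largest of the complexes, and its 36 members were divided into 7 core subunits, which carry the redox centres, and 29 accessory subunits, which surround them. Accessory subunits were higher in DMEM-HG in 25 cases and not called in 4, with a median log2 fold change of 0.46. Of the core subunits 4 were higher (among them Ndufv1 and Ndufv2), 1 was lower (Ndufs1) and 2 were not called (Ndufs3 and Ndufs7), with a median of 0.13. Once the trend was removed the medians were 0.19 for the accessory and 0.02 for the core subunits. Then 20 accessory subunits were higher and 4 lower, against 3 higher and 3 lower in the core. The difference between the accessory and the core subunits was not tested. Median lengths were 651 bases for the accessory and 1589 bases for the core subunits.

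Ndufa6, an accessory subunit of the LYR-motif family, had the highest fold change of all members. It had 183, 172 and 219 FPKM in DMEM-HG, against 83.6, 84.0 and 97.8 FPKM in RPMI-1640. Every DMEM-HG library was well above every RPMI-1640 library, and the ratio of the means was 2.16. The log2 fold change was 1.10 ± 0.09 (SE; adjusted p from limma = 5.3e-07), and 0.72 with the trend removed. The gene spans 82350140 to 82354322 on chromosome 15 of GRCm38, on the minus strand.

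Ndufs6, a zinc-binding accessory subunit, came next in complex I. Its values were 97.7, 91.3 and 122 FPKM in DMEM-HG, against 55.7, 57.3 and 66.5 FPKM in RPMI-1640. The groups did not overlap, and the log2 fold change was 0.78 ± 0.10 (SE; adjusted p from limma = 2.08e-05). Ndufa13, Ndufa1 and Ndufb11 followed with log2 fold changes of 0.77, 0.75 and 0.74. On the values without the trend Ndufs6 was at 0.57, Ndufa13 at 0.26, Ndufa1 at 0.61 and Ndufb11 at 0.40, all still called. The most abundant member of the complex, Ndufb9, averaged 291 ± 16.1 FPKM in DMEM-HG and 187 ± 5.43 FPKM in RPMI-1640 (SD, n = 3 each). Its log2 fold change was 0.63, and 0.19 with the trend removed. At the other end, Ndufa10 had 114, 109 and 116 FPKM in DMEM-HG, against 112, 118 and 118 FPKM in RPMI-1640. These values overlapped, with a log2 fold change of -0.04 ± 0.05 (SE; adjusted p from limma = 0.443). With the trend removed Ndufa10 was called lower, at -0.32.

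In the core, Ndufv1, which binds NADH and the flavin that takes its electrons, had 82.5, 80.9 and 89.3 FPKM in DMEM-HG, against 58.6, 56.7 and 59.2 FPKM in RPMI-1640. All DMEM-HG values were higher, with a log2 fold change of 0.53 ± 0.05 (SE; adjusted p from limma = 2.38e-06) and 0.16 with the trend removed. Ndufs1, the large iron-sulphur subunit of the same module, went the other way. It had 70.7, 73.4 and 63.6 FPKM in DMEM-HG, against 86.3, 87.8 and 87.1 FPKM in RPMI-1640. No DMEM-HG library reached the lowest RPMI-1640 library, and the log2 fold change was -0.33 ± 0.06 (SE; adjusted p from limma = 0.000199). After removal of the trend it was -0.14 and still called. Ndufs1 has a length of 2783 bases, the longest in complex I. Ndufv2, another iron-sulphur subunit, was just inside the threshold (log2 fold change 0.11, limma adjusted p = 0.0453), and leaving out any library other than DMEM-HG replicate 2 ended the call. Ndufs3 (limma adjusted p = 0.0532) was called higher when the replicate number was kept as a block (adjusted p = 0.0246), as were the accessory subunits Ndufb10 and Ndufa12. On the values without the trend, and with no block, Ndufs3 and Ndufb10 were instead called lower, at -0.24 and -0.30, and Ndufa12 was not called at 0.02. Of the transcript of Ndufs3, 54.0% is in words of 32 bases shared with other genes, so its value is uncertain.

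**Figure D3:**
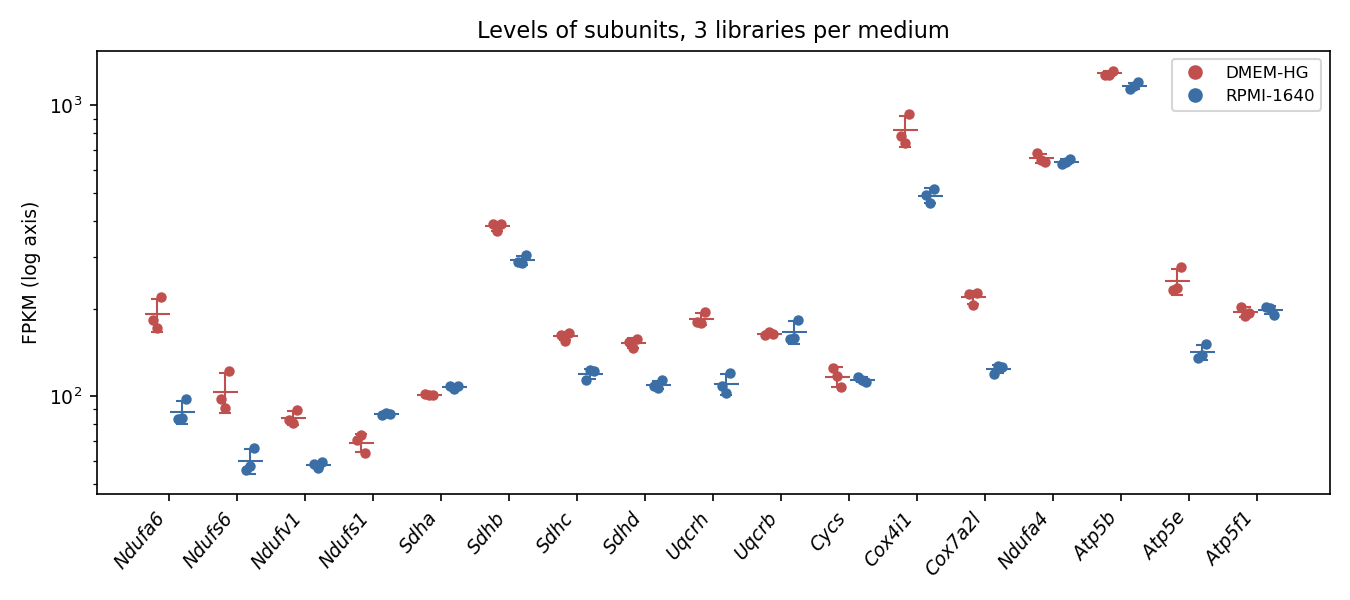
FPKM (log axis) of 16 subunits and cytochrome c in the 3 DMEM-HG libraries (left of each pair) and the 3 RPMI-1640 libraries (right), with bars for the mean and SD. Ndufa6 lies between 172 and 219 in DMEM-HG, above 83.6 to 97.8 in RPMI-1640, while Ndufs1 is lower in DMEM-HG and Sdha, Uqcrb, Ndufa4 and Atp5f1 lie close together.

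Complex II, which oxidises succinate in the citric acid cycle and has no subunit encoded in mitochondrial DNA, had 3 of its 4 members called higher in DMEM-HG. The members called were the iron-sulphur subunit Sdhb and the membrane anchors Sdhc and Sdhd. Sdhd had 154, 146 and 158 FPKM in DMEM-HG, against 108, 107 and 113 FPKM in RPMI-1640, and a log2 fold change of 0.47 ± 0.05 (SE; adjusted p from limma = 3.4e-06). Sdhc had 163, 155 and 165 FPKM in DMEM-HG, against 114, 123 and 122 FPKM in RPMI-1640. The media did not overlap for either anchor, and with the trend removed both were still called higher, at 0.32 for Sdhd and 0.28 for Sdhc. Sdhb was the most abundant, with 391, 369 and 390 FPKM in DMEM-HG, against 289, 286 and 305 FPKM in RPMI-1640. Its log2 fold change of 0.38 was -0.01 with the trend removed and not called. Sdha, the flavin-carrying subunit that binds succinate, had 102, 101 and 101 FPKM in DMEM-HG, against 109, 106 and 108 FPKM in RPMI-1640. The values did not overlap, with DMEM-HG below, but the difference was small (log2 fold change -0.09 ± 0.04, SE; adjusted p from limma = 0.0695). With the replicate number as a block Sdha was called lower (adjusted p = 0.0323).

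Complex III had 7 of 9 members higher in DMEM-HG and 2 not called. Uqcrh, the hinge protein beside cytochrome c1, had 180, 179 and 195 FPKM in DMEM-HG, against 108, 102 and 120 FPKM in RPMI-1640. The lowest DMEM-HG library was far above the highest RPMI-1640 library, with a log2 fold change of 0.74 ± 0.06 (SE; adjusted p from limma = 9.45e-07) and 0.50 with the trend removed. Cyc1, which is cytochrome c1 itself and the most abundant member, averaged 309 ± 32.4 FPKM in DMEM-HG and 217 ± 1.41 FPKM in RPMI-1640 (SD, n = 3 each). Its log2 fold change was 0.50, and 0.10 and not called with the trend removed. The Rieske iron-sulphur protein Uqcrfs1 was higher at 0.36 and the small subunit Uqcr11 at 0.68 (0.24 and 0.16 with the trend removed). Uqcrb, a small ubiquinone-binding protein, had 162, 167 and 163 FPKM in DMEM-HG, against 157, 158 and 183 FPKM in RPMI-1640. The media overlapped (log2 fold change -0.02 ± 0.06, SE; adjusted p from limma = 0.82), and 57.3% of its transcript is in shared words. Uqcrc2, a core protein, was not called either, at 0.08, and was called at 0.20 with the trend removed. With the trend removed 5 members were higher and 0 lower.

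Cytochrome c, the mobile carrier between complexes III and IV, did not follow the subunits. Cycs had 125, 117 and 107 FPKM in DMEM-HG, against 116, 113 and 112 FPKM in RPMI-1640. The groups overlapped, with a log2 fold change of 0.03 ± 0.06 (SE; adjusted p from limma = 0.627). It turned to -0.13 when libraries were scaled to a common total, also not called. With the length and GC trend removed it was called higher at 0.34 (adjusted p = 4.32e-06). Its transcript, at 3059 bases and 40.8% GC, is the longest of the subunits and cytochrome c.

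In complex IV 10 of 13 members were higher in DMEM-HG, 1 was lower and 2 were not called, and with the trend removed 7 were higher, 1 lower and 5 not called. Several of its subunits exist as isoforms from separate genes, and the ubiquitous form was the one detected at a high level in each case. Cox4i1 was the most abundant, with 782, 742 and 936 FPKM in DMEM-HG, against 491, 461 and 517 FPKM in RPMI-1640. The media were clearly apart, at a log2 fold change of 0.74 ± 0.08 (SE; adjusted p from limma = 6.88e-06) and 0.23 with the trend removed. Its isoform Cox4i2, known from lung and from low oxygen, was at 0.0775 FPKM in DMEM-HG replicate 1 and at 0 in the other libraries. Cox6a1 averaged 587 ± 64.8 FPKM in DMEM-HG and 386 ± 27.5 FPKM in RPMI-1640 (SD, n = 3 each), with a log2 fold change of 0.60, and 0.07 and not called with the trend removed. The heart and muscle isoform Cox6a2 was barely above the threshold and the only complex IV member called lower. It had 1.73, 1.19 and 1.08 FPKM in DMEM-HG, against 3.07, 2.14 and 2.65 FPKM in RPMI-1640, from between 29 and 79 reads. The groups did not overlap, and the log2 fold change was -0.64 ± 0.12 (SE; adjusted p from limma = 0.000459), and -0.99 with the trend removed.

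Cox7a2l, a relative of Cox7a2 that helps to join complexes III and IV into supercomplexes, had the highest fold change in complex IV. It had 225, 206 and 226 FPKM in DMEM-HG, against 119, 127 and 126 FPKM in RPMI-1640. Each DMEM-HG library exceeded each RPMI-1640 library, with a log2 fold change of 0.81 ± 0.05 (SE; adjusted p from limma = 1.19e-07) and 0.62 with the trend removed. Cox7a2, the ubiquitous subunit, was higher at 0.43, and at 0.12 with the trend removed. The muscle isoform Cox7a1 had 0.671, 0.222 and 0.412 FPKM in DMEM-HG, against 0.841, 1.14 and 0.506 FPKM in RPMI-1640, below the threshold and overlapping.

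The other nuclear-encoded subunits of complex IV were mostly moderately higher. Cox5a, a subunit on the matrix side, stood at 0.60 and Cox5b at 0.41. Cox6c was at 0.40, Cox7c at 0.36 and Cox6b1 at 0.28, all called. After removal of the trend Cox5a, Cox5b, Cox6c and Cox7c were still called, at 0.40, 0.21, 0.28 and 0.45, and Cox6b1 was not, at -0.0016. Cox8a, the ubiquitous form of the smallest subunit, was called at 0.45 and was -0.07 and not called with the trend removed. Cox7c lost its call when libraries were scaled to a common total (log2 fold change 0.20, limma adjusted p = 0.068). Cox7b had 161, 159 and 176 FPKM in DMEM-HG, against 145, 153 and 169 FPKM in RPMI-1640. The media overlapped and the gene was not called (log2 fold change 0.09, limma adjusted p = 0.209), though it was with the replicate number as a block (adjusted p = 0.0365), and under scaling to a common total its sign turned to -0.07. Ndufa4, first assigned to complex I and now to complex IV, had 685, 647 and 639 FPKM in DMEM-HG, against 630, 636 and 653 FPKM in RPMI-1640. These values overlapped, with a log2 fold change of 0.04 ± 0.05 (SE; adjusted p from limma = 0.508). Scaling to a common total gave -0.13 and a call (adjusted p = 0.0215). Its isoform Ndufa4l2, known as a target of hypoxia signalling, averaged 0.735 ± 0.115 FPKM in DMEM-HG and 0.357 ± 0.117 FPKM in RPMI-1640 (SD, n = 3 each) and was under the threshold.

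The threshold of 1 FPKM left out 7 rows, all of complex IV. Cox7b2 and Cox8c were at 0 in all libraries. Cox8b, a muscle isoform, was at 0 in DMEM-HG and at 0.0707, 0.243 and 0.218 FPKM in RPMI-1640, and Cox6b2, a testis isoform, reached at most 0.049 FPKM. The rows nearest the threshold were Ndufa4l2 and Cox7a1 below it, with means of 0.546 and 0.633 FPKM, and Cox20 and Cox6a2 above it, with means of 1.64 and 1.98 FPKM.

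Complex V had 13 of 15 members higher in DMEM-HG and 2 not called. On the values without the trend 6 were higher, 5 lower and 4 not called, and the median log2 fold change was 0.07 in place of 0.38. The F1 head carries the catalytic sites, and its subunits are Atp5a1, Atp5b, Atp5c1, Atp5d and Atp5e. All 5 were called higher on the deposited values. With the trend removed Atp5a1 and Atp5e stayed higher, Atp5b was called lower, and Atp5c1 and Atp5d, at 0.07 and 0.06, were not called. Atp5e, the small epsilon subunit, had 233, 235 and 278 FPKM in DMEM-HG, against 135, 138 and 151 FPKM in RPMI-1640. There was no overlap, and the log2 fold change was 0.80 ± 0.07 (SE; adjusted p from limma = 1.22e-06), and 0.40 with the trend removed. The most abundant of all members was Atp5b, the catalytic beta subunit, with 1275, 1273 and 1313 FPKM in DMEM-HG, against 1139, 1163 and 1198 FPKM in RPMI-1640. Its values did not overlap either, but the ratio of the means was 1.10 and the log2 fold change 0.14 ± 0.05 (SE; adjusted p from limma = 0.0254). The sign of Atp5b turned with the processing, to -0.15 and called with the trend removed and to -0.02 and not called under scaling to a common total. The length taken for Atp5b from the FPKM steps was 939.5 bases, which is not a whole number. Its value and call with the trend removed are therefore uncertain. On the deposited values the call of Atp5b was lost without DMEM-HG replicate 1 (adjusted p = 0.0548), RPMI-1640 replicate 1 (0.127) or RPMI-1640 replicate 2 (0.0993). Atp5a1, the alpha subunit that alternates with beta, was at 0.41, Atp5d at 0.56 and Atp5c1, the central stalk, at 0.24.

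Of the membrane part of complex V, the ring is made of a subunit encoded by Atp5g1, Atp5g2 and Atp5g3, whose mature proteins are the same. Atp5g3 averaged 435 ± 22.0 FPKM in DMEM-HG and 312 ± 6.87 FPKM in RPMI-1640 (SD, n = 3 each), Atp5g2 334 ± 26.2 and 256 ± 13.8 FPKM, and Atp5g1 110 ± 18.2 and 90.3 ± 10.6 FPKM. All were called higher, at log2 fold changes of 0.48, 0.38 and 0.28. Atp5g1 overlapped between the media (114, 90.4 and 126 FPKM in DMEM-HG, against 92.0, 79.0 and 99.9 FPKM in RPMI-1640). Its call (limma adjusted p = 0.038) was lost without DMEM-HG replicate 1 (0.108) or 3 (0.118) or RPMI-1640 replicate 1 (0.0514) or 2 (0.159). After removal of the trend Atp5g3 was higher at 0.22, Atp5g2 was lower at -0.22 and Atp5g1 was not called. Atp5f1, the peripheral stalk subunit b, had 203, 189 and 193 FPKM in DMEM-HG, against 202, 201 and 191 FPKM in RPMI-1640. Its groups overlapped, with a log2 fold change of -0.02 ± 0.05 (SE; adjusted p from limma = 0.709). Atp5k was not called either, at 0.11. On the values without the trend both were called lower, at -0.10 and -0.25. Atp5o, which links the stalk to F1, was higher at 0.46, and Atp5l, a membrane subunit, at 0.64 (0.09 and 0.49 with the trend removed, both called). The length taken for Atp5o was 386 bases, and lengths from the FPKM steps can come out too small. Its call with the trend removed (limma adjusted p = 0.0418) is therefore uncertain. Shared words make up 85.4% of the Atp5l transcript and 59.6% of that of the stalk subunit Atp5h, so these values are uncertain.

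**Figure D4:**
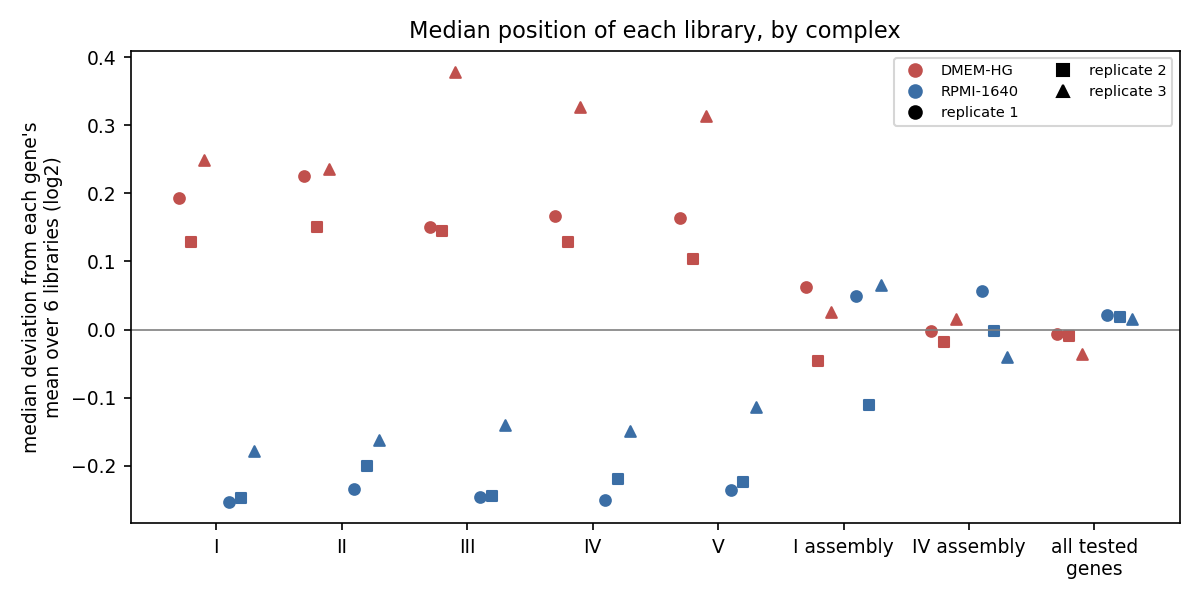
Median over the members of each class of the deviation from each gene's mean over the 6 libraries (log2), per library, with DMEM-HG left of RPMI-1640 and a marker shape for the replicate number. In complexes I to V every DMEM-HG library lies above every RPMI-1640 library, and DMEM-HG replicate 3 is highest, at 0.248 for complex I and 0.378 for complex III.

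Within each medium the libraries were not level. Over the 78 subunits the median deviation from the gene means was 0.181, 0.131 and 0.281 in DMEM-HG, against -0.243, -0.229 and -0.148 in RPMI-1640. DMEM-HG replicate 3 was the highest library and RPMI-1640 replicate 3 the highest of its medium. Genes of the shortest 10% showed the same order, with 0.153, 0.092 and 0.224 in DMEM-HG, against -0.177, -0.177 and -0.115 in RPMI-1640. DMEM-HG replicate 3 is also the library whose title carries L3 where the others carry L2. Without it 62 subunits were called higher, as with it, and the median log2 fold change of complex III was 0.34 in place of 0.46.

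The 8 assembly factors of complex I had 3 members higher, 3 lower and 2 not called. Atp5sl, also known as Dmac2 and named for assembly of the distal membrane arm, had 6.41, 5.59 and 6.02 FPKM in DMEM-HG, against 3.13, 3.24 and 3.32 FPKM in RPMI-1640. No values overlapped, with a log2 fold change of 0.73 ± 0.07 (SE; adjusted p from limma = 2.97e-06) and 0.50 with the trend removed. Ndufaf1, part of the intermediate assembly complex, was higher at 0.38, and Ndufaf7, an arginine methyltransferase, at 0.16, a call lost without DMEM-HG replicate 1 or 2 or RPMI-1640 replicate 1 or 2. Ndufaf2, a relative of the subunit Ndufa12, had 22.8, 18.7 and 21.7 FPKM in DMEM-HG, against 27.3, 27.9 and 27.2 FPKM in RPMI-1640. It was lower in all DMEM-HG libraries (log2 fold change -0.37 ± 0.07, SE, and adjusted p from limma = 0.000389). However, 65.6% of its exon bases overlap other annotated genes. Ndufaf6 was lower at -0.28, and at -0.49 with the trend removed. Ndufaf4 was lower at -0.36, and at 0.03 and not called with the trend removed. Ndufaf3 and Ndufaf5 were not called, and with the trend removed Ndufaf3 was lower at -0.45.

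For complex IV, 3 of 9 assembly factors were higher, 2 lower and 4 not called, and with the trend removed 3 were higher and 4 lower. Cox14, which helps synthesis and assembly of the Cox1 subunit, had 161, 169 and 190 FPKM in DMEM-HG, against 95.7, 94.4 and 95.3 FPKM in RPMI-1640. The media were far apart, with a log2 fold change of 0.86 ± 0.06 (SE; adjusted p from limma = 2.18e-07) and 0.43 with the trend removed. The copper-handling proteins Cox17 and Cox19 were higher at 0.48 and 0.37 (0.39, and 0.10 and not called, with the trend removed), and Cox11, which delivers copper to Cox1, was not called at -0.06. Cox15, which makes haem A from the haem O that Cox10 makes, had 8.34, 7.84 and 7.44 FPKM in DMEM-HG, against 12.2, 12.4 and 12.3 FPKM in RPMI-1640. It was lower throughout, with a log2 fold change of -0.59 ± 0.06 (SE; adjusted p from limma = 5.05e-06) and -0.28 with the trend removed. Cox10 was not called at -0.02, and with the trend removed it was lower at -0.21.

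Cox20, a chaperone of the Cox2 subunit, had 1.16, 0.890 and 1.12 FPKM in DMEM-HG, against 2.37, 2.07 and 2.24 FPKM in RPMI-1640. It was lower in every DMEM-HG library (log2 fold change -0.65 ± 0.08, SE; adjusted p from limma = 2.34e-05), from between 26 and 74 reads. The value is uncertain, since 78.0% of its transcript is in shared words. Of its exon bases 91.1% overlap other annotated genes, Hnrnpu the most. The same caution applies to Cox16 and Cox11, with 88.8% and 55.5% in shared words. Atp5s, whose name matched the rule but which was put in no complex, was lower at -0.37 and not called with the trend removed.

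**Figure D5:**
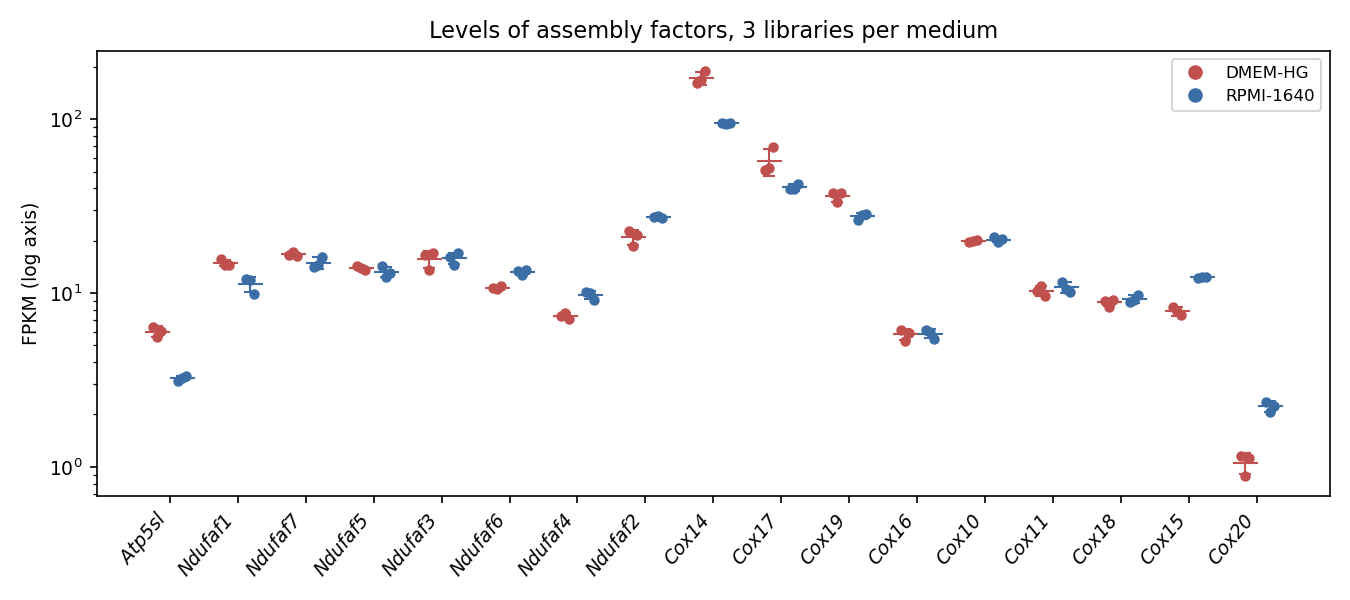
FPKM (log axis) of the 17 assembly factors in the 3 DMEM-HG libraries (left of each pair) and the 3 RPMI-1640 libraries (right), with bars for the mean and SD. Cox14 and Atp5sl lie higher in DMEM-HG, Cox15 and Cox20 lie lower, and 6 of the 17 were not called.

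Median levels also differed between subunits and assembly factors, though their ranges overlapped. The mean over the 6 libraries had a median of 139 FPKM over the subunits, from 1.98 for Cox6a2 to 1227 for Atp5b. Over the assembly factors the median was 13.1 FPKM, from 1.64 for Cox20 to 134 for Cox14. Among the complexes the median level was highest for complex IV, at 251 FPKM, then 236 for complex V, 165 for complex III, 136 for complex II and 86.8 for complex I. The spread within each complex was wide, and these orders were not tested.

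A list of further proteins that the name rule did not reach, most of them assembly factors, moved in both directions too. It also held Usmg5 and 2010107E04Rik, which are subunits of complex V, and Atpif1, an inhibitor of complex V. Usmg5 and 2010107E04Rik were called higher at 0.30 and 0.36, and Atpif1 was not called at 0.05. Of the 38 tested on the list, these included, 18 were higher in DMEM-HG (47.4%), 9 lower (23.7%) and 11 not called. Of all tested genes 35.4% were higher and 40.6% lower. The median log2 fold change of the list was 0.11, and -0.0006 with the trend removed. On the values without the trend 12 were higher and 9 lower, beside 36.4% and 37.3% of all tested genes. Uqcc2, needed for cytochrome b of complex III, averaged 102 ± 11.4 FPKM in DMEM-HG and 57.2 ± 4.14 FPKM in RPMI-1640 (SD, n = 3 each). Its log2 fold change was 0.81 ± 0.08 (SE; adjusted p from limma = 2.34e-06). Higd2a, a supercomplex factor, and Coa3, a partner of Cox14, were higher at 0.69 and 0.51. With the trend removed Uqcc2, Higd2a and Coa3 were at 0.33, 0.31 and 0.12, all still called.

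Transcriptional regulators of the respiratory chain were mostly lower in DMEM-HG. Of 15 tested 1 was higher, 10 were lower and 4 were not called, beside 35.4% higher and 40.6% lower of all tested genes, with a median log2 fold change of -0.36, and -0.35 with the trend removed. Gabpb2, a beta subunit of GABP, averaged 5.66 ± 0.947 FPKM in DMEM-HG and 12.8 ± 0.945 FPKM in RPMI-1640 (SD, n = 3 each). The groups did not overlap, at a log2 fold change of -1.06 ± 0.10 (SE; adjusted p from limma = 1.92e-06), and -0.47 with the trend removed. The coactivator Ppargc1b was lower at -0.83, with 0.732 ± 0.0461 FPKM in DMEM-HG and 2.09 ± 0.0534 FPKM in RPMI-1640 (SD, n = 3 each). Gabpa, the DNA-binding subunit of GABP, was lower at -0.75 and Nrf1 at -0.52. After removal of the trend Ppargc1b, Gabpa and Nrf1 were at -0.66, -0.26 and -0.52, all still called. Esrra, an orphan nuclear receptor, was the one called higher on the deposited values, at 0.50, and at 0.10 and not called with the trend removed. On the values without the trend 2 were higher and 11 lower, beside 36.4% and 37.3% of all tested genes. The 2 then called higher were Ppargc1a at 0.62 and Tfam at 0.15. On the deposited values neither was called, at -0.005 for Ppargc1a and -0.05 for Tfam.

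Of 15 further mitochondrial proteins that serve the chain, 10 were higher (66.7%), 3 lower (20%) and 2 not called. Beside them, 35.4% of all tested genes were higher and 40.6% lower. The median log2 fold change of these proteins was 0.39. On the values without the trend 6 were higher and 5 lower, with a median of 0.07. Of all tested genes 36.4% were then higher and 37.3% lower. Higd1a, a hypoxia-inducible protein that binds complex IV, averaged 51.9 ± 4.01 FPKM in DMEM-HG and 18.6 ± 1.18 FPKM in RPMI-1640 (SD, n = 3 each). Its log2 fold change was 1.43 ± 0.07 (SE; adjusted p from limma = 1.87e-08), and 1.30 with the trend removed. The protease subunit Clpp was higher at 0.60, and at 0.14 with the trend removed. Opa1, which fuses and shapes the inner membrane, averaged 13.9 ± 1.43 FPKM in DMEM-HG and 25.3 ± 0.62 FPKM in RPMI-1640 (SD, n = 3 each), a log2 fold change of -0.82, and -0.28 with the trend removed.

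Promoter letters were read for the 77 of 96 members with an entry in the RefSeq table, on both strands. GCGCANGCG (NRF1) was in the windows of 23 members (29.9%), against 7.03% of 27025 promoters of all genes and 17.0% of 8343 tested genes. CCGGAAG (ETS) was in 22 (28.6%), against 9.93% and 22.1%. AAGATGGC (YY1) was in 11 (14.3%), against 3.19% and 5.79%, and TGACGTCA (CRE) in 5 (6.49%), against 2.03% and 3.75%. The motifs were counted separately and no overlap between them was removed. The NRF1 letters were in 8 of 32 complex I subunits with an entry, 2 of 5 of complex III, 1 of 10 of complex IV and 7 of 13 of complex V. These shares were not tested. The median log2 fold change was 0.38 for members with the NRF1 letters and 0.37 for those without, and with the ETS letters 0.38 and 0.36. For the YY1 letters these medians were 0.25 and 0.38, and for the CRE letters 0.36 and 0.38. With the length and GC trend removed they were 0.08 and 0.15 for NRF1 and 0.09 and 0.14 for ETS. For YY1 they were then 0.27 and 0.12, and for CRE 0.24 and 0.11. The order of the medians thus turned for each motif, and no difference between them was tested. A match is a description of the letters and not a binding site.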

How the data were processed

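RNA of 6 B16F10 libraries was measured by sequencing, 3 in DMEM-HG and 3 in RPMI-1640, grouped by title. The deposited table gives FPKM computed by the authors for each library, per the file headers; no pooling was applied. The submitters' processing notes name builds GRCm38 and mm10. Of the aligner, counting tool, annotation and strand setting, nothing is stated (not given in the sources used here).

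The 10624 genes averaging 1 FPKM or more entered a two-sided test in limma 3.58.1 (R 4.3.3; lmFit, eBayes with a trend) of the medium alone, on log2(FPKM + 1), a scale that understates changes of low genes. P-values were Benjamini-Hochberg adjusted over these genes, and an adjusted p under 0.05 was called. Exact permutation of 3 against 3 libraries cannot go below 0.1, so no such test is given. Fragments came out whole from the FPKM steps for all 10624 tested genes (100%, within 0.005), and voom on them called 8082 genes, against 8078. For each gene the smallest whole numbers that fit were taken, so fragments and length can come out too small. The length of Atp5b, 939.5 bases, is not a whole number. Library totals rest on 987 genes with a single transcript, of which 114 share the commonest factor. The length and GC trend was removed per library with natural splines of 5 degrees of freedom, for the 10568 genes (99.5%) with a GC value. Length comes from the FPKM steps, and GC content, positions and shared words of 32 bases from GENCODE M21 (GRCm38).

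Same-numbered libraries deviated together (correlations of 0.151, 0.150 and 0.382), so the numbers were taken as possible pairs by a rule of correlations over 0.1. The labels do not say so. The main test did not use these pairs, and the replicate number entered only as a block in alternative fits. Replicates 1 and 2 correlated nearly as well crosswise (0.131 and 0.137), also over 0.1. The rule therefore cannot settle the pairing for them, which is uncertain. With the trend removed these were 0.0521, 0.0384 and 0.141, and DMEM-HG replicate 1 correlated better with RPMI-1640 replicate 2 (0.0696).

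Members, lists and tests were chosen with earlier results of these data known. Named are, per class, the highest and lowest fold change and the highest level, all members called lower, isoform families, complex II, cytochrome c, the rows next to the threshold, and up to 3 called genes per list; any other gene was picked once its values had been seen. A gene that this rule names is not reported here. The steps were tested on simulated data. Python 3.11.15, pandas 2.3.3, numpy 2.4.6, scipy 1.17.1 and matplotlib 3.10.9 were used.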

Additional observations from a re-analysis of the deposited data

How the results depend on the processing

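Of the values of 41 named genes under 15 alternatives, 547 of 611 kept direction and side of the threshold. The causes of the changes below were not tested. Over all tested genes 8078 were called, and between 7454 and 8011 without 1 library. With the replicate number as a block 8432 genes were called, 72 members were higher and 9 lower, and complex II had 1 lower; other than the members named in the report, no call of a named gene changed. With no filter complex II had 1 lower, and with the minimum raised to 5 FPKM 1 subunit was lower, complex IV had 0 lower, and the medians were -0.017 for the complex I assembly factors and -0.0166 for all tested genes.

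With the trend removed 13 subunits were lower (14 with the block added), 7 in complex I with and without the block, 5 in complex V, and 2 in complex IV with the block; complex V had 6 higher, or 8 with the block. The medians, the same with and without the block, were 0.16 for the subunits, 0.17, 0.13, 0.16, 0.14 and 0.065 for complexes I to V, -0.091 for the complex IV assembly factors and -6.7e-05 for all tested genes. The signs of Sdhb (-0.011), Uqcrb (0.0039), Atp5b (-0.15), Ndufaf4 (0.031), Cox8a (-0.072), Atp5g2 (-0.22) and Cox6b1 (-0.0016) turned, with and without the block.

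Scaled to a common total, 7 subunits and 8 assembly factors were lower, with 2 in complex I, 1 in II, 1 in III, 2 in IV and 1 in V, where 8 were higher. The medians were 0.25 for the subunits, 0.29, 0.24, 0.29, 0.25 and 0.22 for complexes I to V, -0.13 and -0.18 for the complex I and IV assembly factors and -0.18 for all tested genes. Atp5b (-0.023), Cycs (-0.13), Cox7b (-0.074) and Ndufa4 (-0.13) turned. After quantile normalization 8 subunits were lower, with 2 in complex I, 1 in II, 1 in III, 2 in IV and 2 in V. The medians were 0.23 for the subunits, 0.31, 0.23, 0.31, 0.19 and 0.20 for complexes I to V, 0.12 and 0.070 for the complex I and IV assembly factors and -0.0035 for all tested genes. Atp5b (-0.29), Cycs (-0.11), Cox7b (-0.076) and Ndufa4 (-0.27) turned.

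Without 1 library, the median lay between 0.34 and 0.50 for complex III and between -0.020 and 0.076 for the complex I assembly factors, and the log2 fold change between -0.053 and 0.055 for Uqcrb, between -0.051 and 0.0014 for Atp5f1 and between -0.021 and 0.090 for Cycs.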
